A study of Mus musculus with 12 samples.

Results

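The chaperonin CCT, also called TRiC, is built from 8 different subunits, and its 8 genes were chosen by symbol: Tcp1, Cct2, Cct3, Cct4, Cct5, Cct6a, Cct7 and Cct8. All 8 were found among the 24824 genes of the deposited table, and all 8 passed the filter of a mean of at least 1 FPKM (fragments per kilobase of transcript, scaled to the mapped fragments of the library) that left 10615 genes for testing. The study sequenced polyA RNA from AML12 cells, an immortalized mouse hepatocyte line, in 4 groups of 3 libraries, each harvested 24 h after treatment. No gene edit was listed among the treatments of these groups. Group A was grown in standard medium, group B received 300 μM CuCl2 with 40 nM elesclomol (Cu/ES), a copper ionophore that carries copper into cells, group C received the same Cu/ES with 1000 μM taurocholic acid (TCA), a conjugated bile acid, and group D received 1000 μM TCA alone. Cu/ES was compared with its control in B vs A and, with TCA present on both sides, in C vs D, which shares no library with B vs A. TCA was compared in C vs B and D vs A. The question was whether the 8 subunit genes of 1 complex moved together.

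CCT is a cytosolic folding machine made of a pair of stacked rings, each holding all 8 subunits in a fixed order. It encloses newly made proteins and folds them with the energy of ATP, and actin, tubulin and many WD40-repeat proteins depend on it. Around the ring the products of Cct5, Cct2, Cct4 and Tcp1 sit side by side and bind ATP with higher affinity, and those of Cct3, Cct6a, Cct8 and Cct7 sit side by side and bind it with lower affinity. Prefoldin and phosducin-like proteins bring substrates to CCT or tune it, and in many cells heat shock factor 1 acts on several CCT genes.

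Upstream sequences were taken from RefSeq (GRCm38.p6, a different build from the GRCm39 of the counts), which gave promoters for 7 of the 8 genes and none for Cct4. The 120 bases before the start site are printed 5′ to 3′ on the strand of the gene for Cct3, the subunit gene that moved furthest up with Cu/ES, for Cct6a, the one that moved furthest the other way from the ring mean, and for Cct5, which held a heat shock element repeat.
Cct3 (chr3:88297015-88297134, plus strand): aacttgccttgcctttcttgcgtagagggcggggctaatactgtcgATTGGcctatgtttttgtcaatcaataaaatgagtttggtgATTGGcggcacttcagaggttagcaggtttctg
Cct6a (chr5:129787236-129787355, plus strand): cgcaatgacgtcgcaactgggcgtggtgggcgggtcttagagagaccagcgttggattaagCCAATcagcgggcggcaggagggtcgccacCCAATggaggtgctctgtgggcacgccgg
Cct5 (chr15:31601847-31601966, minus strand): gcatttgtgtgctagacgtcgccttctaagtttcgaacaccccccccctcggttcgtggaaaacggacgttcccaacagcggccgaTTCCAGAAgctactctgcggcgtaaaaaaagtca
The capitals in Cct3 and Cct6a mark CCAAT boxes (CCAAT, or ATTGG where the box lies on the other strand), and the capitals in Cct5 mark TTCNNGAA, an inverted repeat of the heat shock element.

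Both strands of the 250 bases upstream of each start were searched. The 7 genes had 9 promoters, since Cct2 and Cct5 have more than 1 start. The tail-to-tail repeat TTCNNGAA was found in 1 of the 9 (at 1 start of Cct5 only, first base 34 bases before it) and in 7.17% of 32851 mouse promoters. The head-to-head repeat GAANNTTC was found in 1 of the 9 (Cct2, before an alternative start) and in 6.69% of promoters. A longer heat shock element of 3 units, GAANNTTC followed by NNGAA, overlaps both repeats, and 0 of the 9 and 0.466% of promoters held it. The CCAAT box, searched after the values were seen, was in 4 of the 9 (Cct3, Cct6a, Cct7 and Tcp1) and in 33.8% of promoters. The GC box GGGCGG, also searched afterwards, was in 8 of the 9, from all 7 genes, and in 32.7% of promoters. The promoters of Cct3 and Cct6a printed above, whose transcripts moved furthest apart with Cu/ES, each held 2 CCAAT boxes and no heat shock element repeat of these forms.

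Whole read numbers could be recovered from the FPKM values of 22170 of 22212 genes within 0.02 reads. The read total behind the FPKM of each library was inferred from its lowest values. It was 38298862 to 39108522 reads in group A, 30773753 to 32002327 in B, 29115010 to 34912747 in C and 39444418 to 39782145 in D. Every subunit gene had between 6660 and 53675 reads in every library. With Cu/ES most of the table was lower: the median log2 fold change over all genes tested was -1.10 in B vs A and -1.13 in C vs D. When each library was instead divided by its median ratio to the average library, which sets the typical gene to no change, that median moved to 0.01 in B vs A, a shift shared by all genes. FPKM values are shares of a library, so less RNA of 1 gene per cell and more RNA of other genes cannot be told apart. Of the 9 hepatocyte markers, 3 had a mean above 1 FPKM in group A (Apoe, Krt8 and Krt18), and Alb and Hnf4a were listed at 0 in all libraries of A. Their sum, almost all Krt8 and Krt18, ranged from 598 to 651 FPKM in A and from 244 to 296 in B (Krt8 alone turned to a log2 fold change of 0.43 under median-ratio scaling), while Apoe went from 1.73 FPKM in A to 7.96 in B. Among markers of other cell types, the cholangiocyte sum, mostly Krt19, was 230.1 to 325 FPKM in A and 111 to 139.9 in B, while Sox9 of the same list had 10.6 FPKM in A and 50.9 in B. The macrophage sum, nearly all Cd68, was 72.5 to 102 FPKM in A, 24.5 to 28.9 in B and 25.5 to 37.0 in D, the fibroblast and stellate sum was 20.7 to 37.6 FPKM in A and 1.48 to 2.73 in B, and the endothelial sum was 0.922 to 1.16 FPKM in A, 6.76 to 10.5 in B and 16.5 to 19.7 in C. Their part in the subunit results was not tested. Library C2 stood apart for the ring: it was the highest of group C for 8 of 8 subunit genes, against 32.7% of genes tested, so the FPKM fold changes of the subunit genes that use group C are given or summarised without it as well.

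In standard medium the 8 genes lay close together. Cct4 was the highest at 322 ± 10.7 FPKM (SD, n = 3), followed by Cct5 at 264 ± 5.71, Tcp1 at 251 ± 4.70, Cct2 at 244 ± 5.80, Cct3 at 201 ± 7.53, Cct6a at 171 ± 3.11, Cct7 at 164 ± 6.83 and Cct8 at 147 ± 6.62. Only 2 pairs of neighbours in this order had overlapping libraries, Tcp1 with Cct2 and Cct6a with Cct7. FPKM is per length, so these levels can be set beside each other, with the limit that Tcp1, Cct6a, Cct7 and Cct8 share stretches with other genes (given below). The part of this sharing in their levels was not tested. The highest subunit gene stood 2.19 ± 0.0268 times above the lowest. With TCA alone the order was much the same, with Cct4 first at 322 ± 18.3 FPKM and Cct8 last at 153 ± 10.99, a ratio of 2.11 ± 0.0338. Under Cu/ES the order was different. In group B, Cct3 was first at 696 ± 15.7 FPKM, Cct2 (451 ± 2.57) and Cct5 (443 ± 8.60) overlapped, then came Cct4 (356 ± 3.42), Tcp1 (294 ± 8.13) and Cct8 (293 ± 14.8), which overlapped, Cct7 (162 ± 9.40) and Cct6a (125 ± 8.29). The same order held in group C, with the same 2 overlapping pairs. The highest gene now stood 5.56 ± 0.358 times above the lowest in B and 7.51 ± 0.508 times in C, and no library of B or C overlapped one of A or D in this ratio (exact two-sided permutation p = 0.1 for B vs A and for C vs D, the smallest that 3 against 3 can give).

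**Figure D1:**
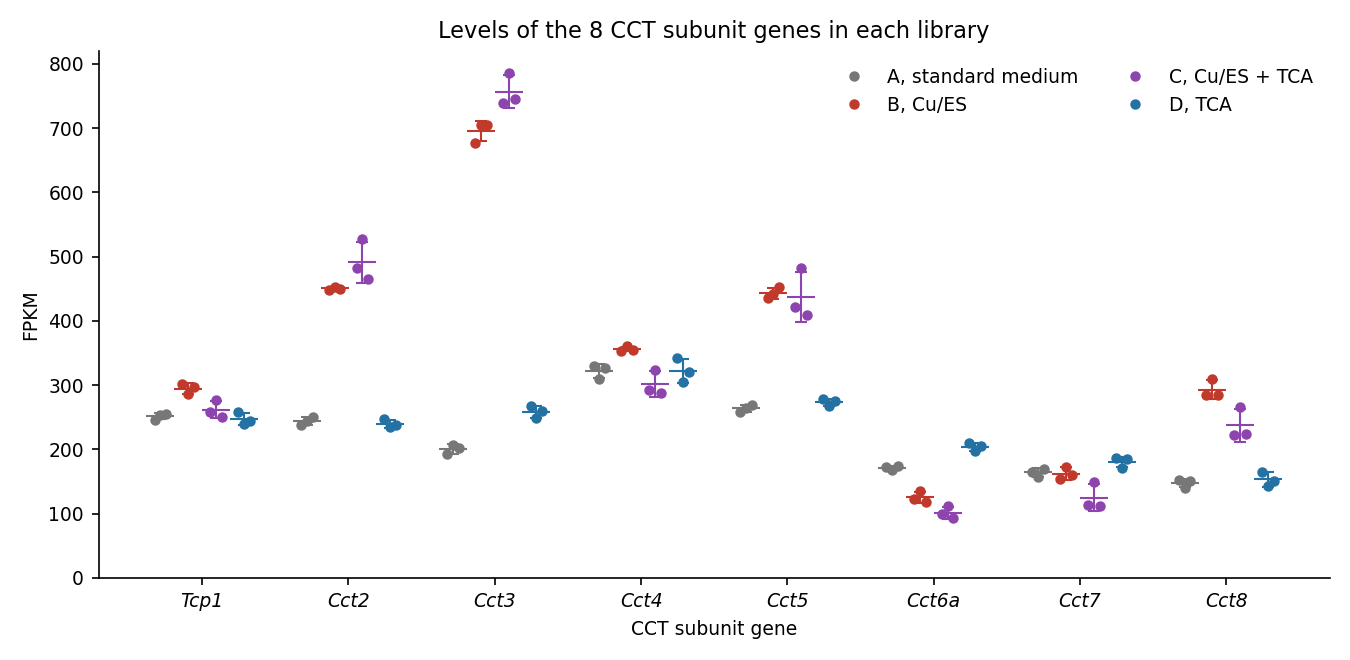
FPKM of the 8 CCT subunit genes in each of the 12 libraries, with points for libraries and bars for the group mean ± SD (n = 3). Cct3 stands at 192 to 207 FPKM in group A and at 677 to 786 in groups B and C, while Cct6a is the lowest of the 8 in B and C.

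Cu/ES raised 4 subunit genes in both comparisons, and these 4 kept their direction and their call under each alternative tried (FPKM, TPM, median-ratio and quantile scaling among them). The strongest was Cct3, the gamma subunit. It measured 192, 207 and 202 FPKM in the libraries of A and 677, 705 and 704 in those of B, a log2 fold change of 1.79 ± 0.06 (SE; limma adjusted p = 9.36e-13). It measured 267, 248 and 259 FPKM in D and 738, 786 and 746 in C, a log2 fold change of 1.55 ± 0.06 (limma adjusted p = 3.08e-12), or 1.52 without C2. Every library with Cu/ES lay far above every library without it.

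Cct2, the beta subunit, measured 238, 244 and 249.96 FPKM in A and 448, 453 and 449.9 in B, a log2 fold change of 0.88 ± 0.06 (limma adjusted p = 2.03e-09). It measured 247, 234 and 237 FPKM in D and 482, 527 and 465 in C, a log2 fold change of 1.03 ± 0.06 (limma adjusted p = 3.27e-10), or 0.98 without C2. The 3 libraries of B lay close together and well above those of A. Cct8, the theta subunit and the lowest in A, measured 152, 139.8 and 150.5 FPKM in A and 285, 310.0 and 284 in B, a log2 fold change of 0.99 ± 0.08 (limma adjusted p = 2.16e-08). It measured 165, 144 and 150.5 FPKM in D and 222, 266 and 223 in C, a log2 fold change of 0.63 ± 0.08 (limma adjusted p = 3.42e-06), or 0.54 without C2. Its groups did not overlap in either comparison.

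Cct5, the epsilon subunit, measured 258, 265 and 269 FPKM in A and 435, 442 and 452 in B, a log2 fold change of 0.74 ± 0.06 (limma adjusted p = 3.85e-08). It measured 278, 268 and 274 FPKM in D and 422, 482 and 409 in C, a log2 fold change of 0.67 ± 0.06 (limma adjusted p = 1.20e-07), or 0.60 without C2. Its change fell to 0.15 in B vs A and 0.14 in C vs D under quantile normalization, still past the test.

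The other 4 subunit genes moved little or down on the FPKM scale, and the direction of each depended on how libraries were scaled. Tcp1, the alpha subunit, measured 246, 253 and 255 FPKM in A and 301, 285 and 297 in B. Its log2 fold change was 0.23 ± 0.06 (limma adjusted p = 0.00191), against -0.14 on the TPM scale, -0.32 under quantile normalization and 1.56 under median-ratio scaling. In C vs D, with 259, 276 and 250.1 FPKM in C and 258, 239.7 and 243 in D, the groups overlapped and the change was 0.08 (95% interval -0.04 to 0.21, limma adjusted p = 0.189), or 0.04 without C2. Cct4, the delta subunit, measured 330.3, 310.1 and 326 FPKM in A and 353, 360.1 and 355 in B. Its log2 fold change of 0.14 ± 0.06 passed only just (limma adjusted p = 0.0438). The call was lost with the replicate number as a block (adjusted p = 0.0577) and without any 1 of the 6 libraries (adjusted p between 0.0537 without A1 and 0.137 without A2), and the value turned to -0.23 on the TPM scale and to -0.49 under quantile normalization. In C vs D it measured 292, 324 and 287 FPKM in C and 342, 305 and 320.3 in D, a log2 fold change of -0.10 (95% interval -0.24 to 0.04, limma adjusted p = 0.152). Without C2 this became -0.15 and passed (limma adjusted p = 0.0211). With all libraries Cct4 was called lower on the TPM scale (-0.39) and under quantile normalization (-0.60), and under median-ratio scaling it turned to 1.29.

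Cct7, the eta subunit, measured 165, 157 and 170.1 FPKM in A and 154, 172 and 161 in B, so that the groups overlapped. Its log2 fold change was -0.02 (95% interval -0.22 to 0.19, limma adjusted p = 0.878), but it was called lower on the TPM scale and under quantile normalization (-0.39 in each) and higher under median-ratio scaling (1.32). In C vs D it measured 114, 149.6 and 112 FPKM in C and 186, 171 and 184 in D, and fell by 0.54 ± 0.10 on the log2 scale (limma adjusted p = 9.80e-05), or by 0.67 without C2, but was higher by 0.84 under median-ratio scaling. Cct6a, the zeta subunit, measured 172, 168 and 174 FPKM in A and 123, 135 and 119 in B, and fell by 0.45 ± 0.07 on the log2 scale (limma adjusted p = 3.55e-05), with 0.88 in place of this value under median-ratio scaling. It measured 99.4, 111 and 92.6 FPKM in C and 210.2, 198 and 204 in D, and fell by 1.01 ± 0.07 on the log2 scale (limma adjusted p = 4.50e-09), or by 1.08 without C2, with 0.37 under median-ratio scaling. Every library of B lay below every library of A for Cct6a, and every library of C below every library of D.

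Set side by side, 6 of the 8 subunit genes were higher and 1 lower in B vs A, where 20.1% of all genes tested were called higher and 72% lower. The count followed the scaling. On the TPM scale 4 were higher and 4 lower, where 1630 of the 10615 genes tested were called higher and 8253 lower. Under quantile normalization 4 were again higher and 4 lower, where 4262 of all genes were called higher and 4832 lower. All 8 were higher with median-ratio scaling, under which 4670 genes of the table were called higher and 4654 lower in place of 2138 and 7639. At the threshold the study used, which also asks for an absolute log2 fold change above 1, only Cct3 passed in B vs A (10.1% of genes tested passed upwards and 53% downwards). Of the 8, 4 were higher and 2 lower in C vs D, where 20.9% of all genes were called higher and 71.5% lower, and 4 were higher and 3 lower without C2. Cct2 and Cct3 passed both thresholds upwards there (background 11.2%) and Cct6a downwards (background 53.3%). The groups did not overlap for 7 of the 8 in B vs A, where they did not for 92.9% of all genes, and for 6 of the 8 in C vs D, where they did not for 92%. On the FPKM scale all 8 lay above the median gene in both comparisons, from 0.65 (Cct6a) to 2.89 (Cct3) log2 units above it in B vs A and from 0.12 to 2.67 in C vs D. Under quantile normalization Tcp1, Cct4, Cct6a and Cct7 lay below it in both comparisons. They had -0.32, -0.49, -0.77 and -0.39 in B vs A, where the median gene had -0.10. In C vs D they had -0.33, -0.60, -1.22 and -0.81, where it had -0.12. The mean of the 8 was 0.54 in B vs A and 0.29 in C vs D, or 0.22 without C2, and the scaling sets these means (-0.12 in C vs D under quantile normalization).

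**Figure D2:**
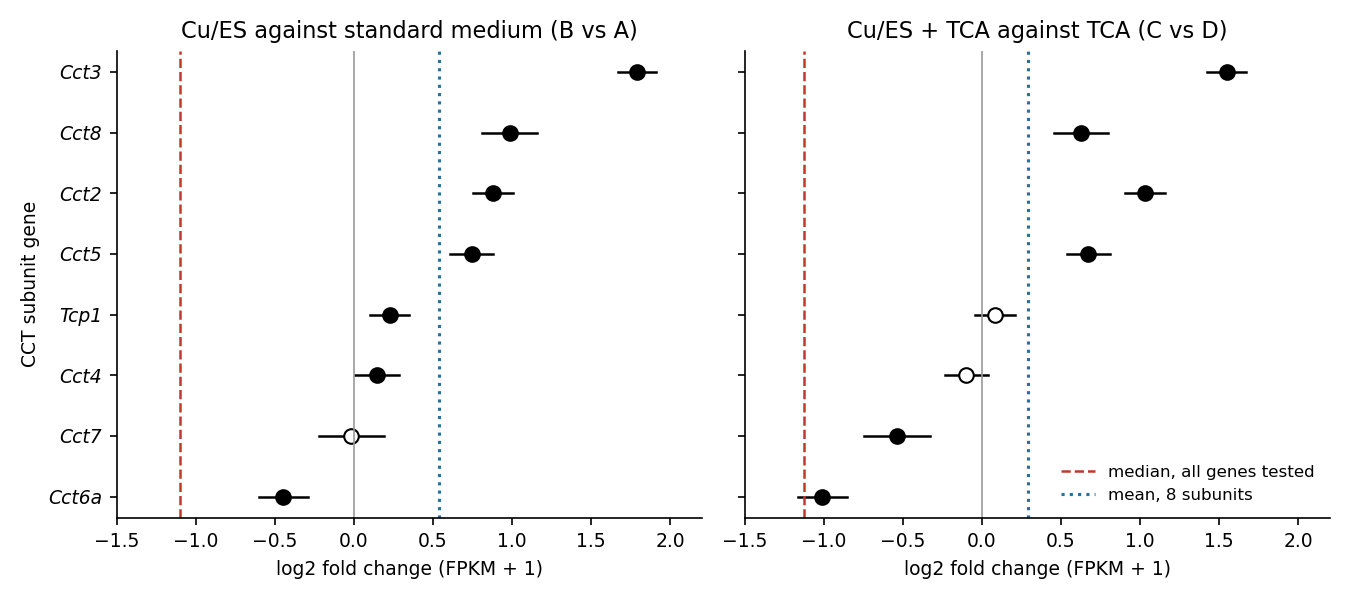
Fitted log2 fold change of each subunit gene with its 95% interval for Cu/ES against standard medium (left) and Cu/ES + TCA against TCA (right), filled where the limma adjusted p was under 0.05. The 8 range from -0.45 to 1.79 on the left and from -1.01 to 1.55 on the right, all to the right of the median gene (dashed) on this FPKM scale. The directions of Tcp1, Cct4, Cct6a and Cct7 turn under other scalings, and these genes lie below the median gene under quantile normalization.

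Ratios among the 8 genes within a library do not depend on a scaling factor between libraries, and they show whether the 8 moved together. The SD of the 8 fold changes was 0.70 log2 units in B vs A, against 1.47 over all genes tested, and 0.84 against 1.52 in C vs D. In B vs A the SD was 0.68 for the 14 genes of the proteasome core, 0.73 for the 10 co-chaperones, 1.72 for the 11 tubulin genes and 3.87 for the 11 cytosolic HSP70 and HSP90 genes, and differences in spread were not tested. The 8 did not change equally: Cct3 and Cct6a ended 4.71-fold further apart in B vs A and 5.89-fold further apart in C vs D. When every gene was expressed relative to the mean of the 8 in its own library, Cct3 rose by 1.25 ± 0.06 log2 units in B vs A, Cct8 by 0.45 ± 0.06, Cct2 by 0.34 ± 0.05 and Cct5 by 0.21 ± 0.05. Tcp1 fell by 0.31 ± 0.06, Cct4 by 0.39 ± 0.05, Cct7 by 0.55 ± 0.07 and Cct6a by 0.99 ± 0.06. All 8 passed the test of an unequal change, close to the 93.3% of all genes that moved apart from the ring mean. In C vs D, from other libraries, Cct3 rose by 1.26 ± 0.06 relative to the ring mean, Cct2 by 0.74 ± 0.05, Cct5 by 0.38 ± 0.05 and Cct8 by 0.34 ± 0.06, while Tcp1 fell by 0.21 ± 0.06, Cct4 by 0.39 ± 0.05, Cct7 by 0.83 ± 0.07 and Cct6a by 1.30 ± 0.06. All 8 again passed (92.6% of all genes), with and without C2, and each of the 8 kept the sign it had in B vs A. Across the 8 genes the signed log2 fold changes of the 2 comparisons, not taken relative to the ring mean, gave Pearson's r of 0.970 and Spearman's rho of 0.929. This is a description over 8 genes that share their libraries.

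The split did not follow the sides of the ring. Among the subunits that bind ATP with higher affinity, Cct2 and Cct5 rose relative to the ring mean and Tcp1 and Cct4 fell, and among those with lower affinity Cct3 and Cct8 rose and Cct7 and Cct6a fell, a grouping made after the values were seen. Cct3 and Cct6a, whose products are neighbours in the ring, held the 2 ends of the range in both comparisons. As shares of the summed CCT FPKM, Cct3 went from 11.4 ± 0.467% in A to 24.7 ± 0.289% in B and from 13.8 ± 0.0801% in D to 28.0 ± 0.997% in C. Cct6a went from 9.70 ± 0.0891% to 4.45 ± 0.252% and from 10.9 ± 0.0995% to 3.73 ± 0.125%. Cct4, the largest share in A at 18.3 ± 0.533%, was 12.6 ± 0.0818% in B and 11.1 ± 0.00786% in C. The share of Cct5 moved least in B vs A, from 15.0 ± 0.244% in A to 15.7 ± 0.301% in B. The sum of the 8 was 1765 ± 28.0 FPKM in A, 2820 ± 42.5 in B, 2711 ± 184 in C and 1878 ± 73.3 in D, and it made up 0.459%, 0.567%, 0.574% and 0.486% of all FPKM.

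**Figure D3:**
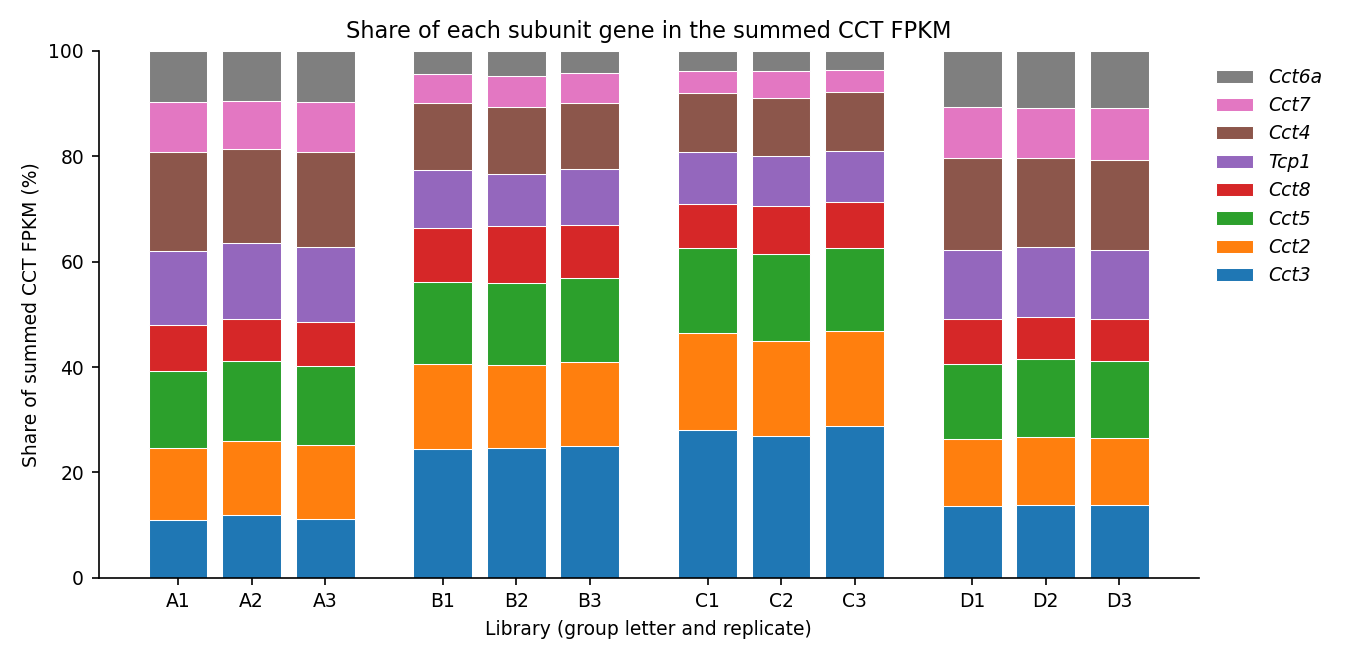
Share of each subunit gene in the summed CCT FPKM of each library, in percent, with libraries named by group and replicate. The share of Cct3 (bottom) is 10.97 to 11.9% in group A and 26.9 to 28.9% in group C, and the shares of Cct7 and Cct6a (top) are smaller in every library of B and C than in any of A or D.

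TCA alone moved the ring little. In D vs A, 2 of the 8 genes were called higher and 0 lower, where limma called 10.5% of all genes higher and 11.5% lower (at an unadjusted p under 0.05 these 2 genes passed and no other, and limma-voom on the recovered reads also called 2). Cct3 rose from 201 ± 7.53 to 258 ± 9.68 FPKM (SD, n = 3), or by 0.36 ± 0.06 log2 units (limma adjusted p = 8.85e-04), with no overlap between groups and the same call under every alternative. Cct6a rose from 171 ± 3.11 to 204 ± 6.16 FPKM, or by 0.25 ± 0.07 log2 units (limma adjusted p = 0.0238). That call was lost under median-ratio scaling (adjusted p = 0.0551) and without A1, A2, A3, D1 or D3, where it lay between 0.0546 and 0.0852. Groups did not overlap for 3 of the 8 (44.2% of all genes). The other 6 had fold changes from -0.03 to 0.14 on the log2 scale, and the widest interval among them, that of Cct7, ran from -0.07 to 0.34. Relative to the ring mean only Cct3 passed, with 0.26 ± 0.06 (limma adjusted p = 0.00503, against 18.8% of all genes).

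With Cu/ES present, adding TCA lowered 5 of the 8 and raised 0 (C vs B), where limma called 23.6% of all genes lower and 20.4% higher. At an unadjusted p under 0.05 the counts were the same, as were those of limma-voom on the recovered reads. Under median-ratio scaling 2 were lower, where 2321 of the 10615 genes tested were called lower and 2735 higher. On the TPM scale 4 were lower and 2 higher, where 2090 of all genes were called lower and 2423 higher. Under quantile normalization 4 were lower and 2 higher, where 2250 of all genes were called lower and 2250 higher. Cct7 fell by 0.39 ± 0.10 on the log2 scale (limma adjusted p = 0.00508), from 154, 172 and 161 FPKM to 114, 149.6 and 112. Cct6a fell by 0.31 ± 0.07, Cct8 by 0.31 ± 0.08, Cct4 by 0.24 ± 0.06 and Tcp1 by 0.17 ± 0.06, with limma adjusted p of 0.00321, 0.00690, 0.00678 and 0.0284. The groups did not overlap for any of these 5, nor for Cct2 and Cct3 (49.2% of all genes). Cct2 and Cct3 went the other way, with log2 fold changes of 0.12 each (limma adjusted p = 0.109 and 0.1004), and passed on the TPM scale (0.20 each) and under quantile normalization (0.15 and 0.24), but were smaller without C2 (0.07 and 0.09). Cct5 had -0.02 (95% interval -0.16 to 0.12), and -0.09 without C2. The call of Tcp1 was lost without B1, B3, C1 or C3 (adjusted p from 0.0726 to 0.119), under each of the other scalings, without a trend (0.0556) and in the fit to the groups compared alone (0.0765), and those of Cct4 and Cct8 were lost under median-ratio scaling (adjusted p = 0.0752 and 0.0505). Leaving out C2, the highest library of group C for each of these genes, had to enlarge the 5 falls. Without it their log2 fold changes were from -0.21 (Tcp1) to -0.52 (Cct7), and all 5 passed.

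Relative to the ring mean in the same library, TCA on top of Cu/ES moved 5 of the 8 (39.3% of all genes): Cct2 and Cct3 rose by 0.27 ± 0.05 and 0.27 ± 0.06, and Cct7, Cct6a and Cct8 fell by 0.24 ± 0.07, 0.16 ± 0.06 and 0.16 ± 0.06. The limma adjusted p of Cct7 was 0.0115 and became 0.0565 without C1 and 0.0520 without C3, and those of Cct6a (0.0425) and Cct8 (0.0447) rose past 0.05 without B1, B2, C1 or C3, and that of Cct8 also without B3. For Cct2, Cct3, Cct6a and Cct7 these shifts had the sign that Cu/ES itself gave them, and for Cct8 the opposite sign. C vs B and B vs A share the libraries of B, so these values are given side by side only.

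**Figure D4:**
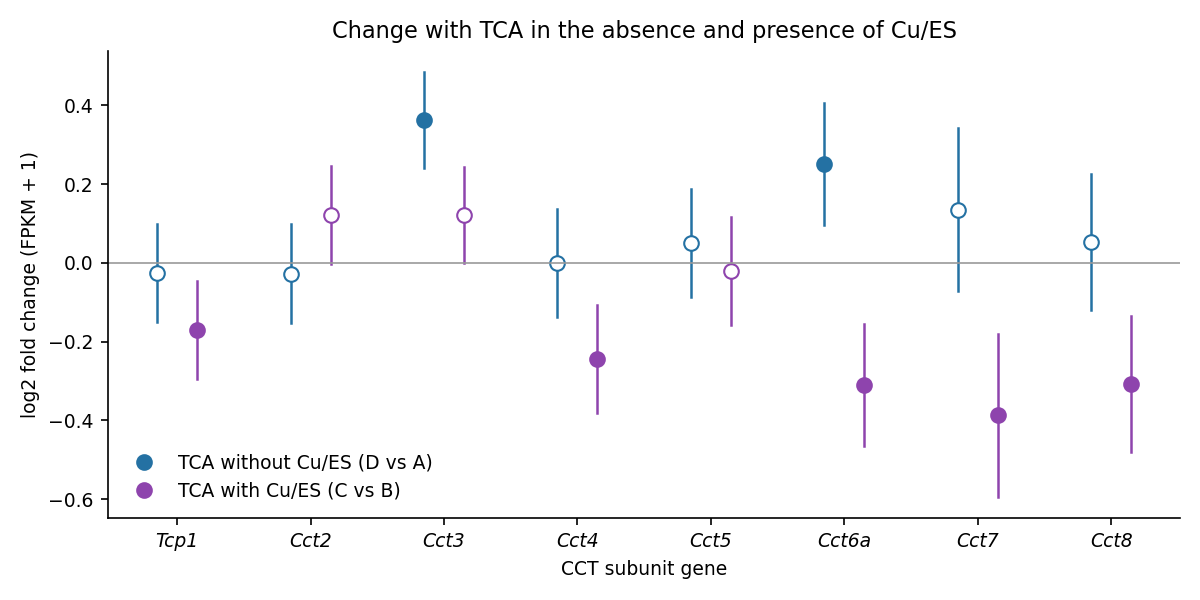
Fitted log2 fold change of each subunit gene with TCA in the absence (D vs A) and presence (C vs B) of Cu/ES, with 95% intervals, filled where the limma adjusted p was under 0.05. Without Cu/ES the 8 lie between -0.03 and 0.36, and with Cu/ES between -0.39 and 0.12.

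The difference between these 2 effects of TCA was tested as an interaction. It was negative for 7 of the 8 subunit genes and passed for 5 of them, against 19.8% of all genes called lower and 17.7% called higher (37.5% in either direction). Cct6a had the largest, at -0.56 ± 0.10 log2 units (limma adjusted p = 9.42e-04), then Cct7 at -0.52 ± 0.14 (limma adjusted p = 0.00890). Both passed in each of the 21 alternative fits. Cct8, Cct4 and Cct3 had -0.36, -0.24 and -0.24 and lost the call in 8, 16 and 12 of the 21. Tcp1 (-0.14), Cct5 (-0.07) and Cct2 (0.15) did not pass, though Cct2 passed upwards on the TPM scale (0.23) and under quantile normalization (0.23). Without C2 the interaction was -0.63 for Cct6a, -0.66 for Cct7, -0.45 for Cct8, -0.30 for Cct4, -0.27 for Cct3, -0.18 for Tcp1, -0.14 for Cct5 and 0.10 for Cct2, and the same number of 5 passed. Relative to the ring mean, the interaction was 0.40 ± 0.07 for Cct2, -0.31 ± 0.08 for Cct6a and -0.27 ± 0.10 for Cct7 (3 of 8 passed, against 38.4% of all genes). That of Cct7 had a limma adjusted p of 0.0363 and rose past 0.05 when A1, A2, A3, B2, B3, C1, C3, D1 or D3 was left out, up to 0.0892 without C1.

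The partners and clients of CCT are read against all genes, of which 72% were called lower and 20.1% higher in B vs A on the FPKM scale. Of the 10615 genes tested, 4670 were called higher and 4654 lower under median-ratio scaling. These counts were 1630 and 8253 on the TPM scale and 4262 and 4832 under quantile normalization. Of the 10 co-chaperones (the 6 prefoldin subunits, which hand substrates to CCT, and the phosducin-like Pdcl and Pdcl3, with Txndc9 and Pdcd5), 2 were higher and 7 lower in B vs A. These shares are close to the background, and 7 were higher and 0 lower under median-ratio scaling. Their median change was -0.58 log2 units on the FPKM scale and turned to 0.69 under median-ratio scaling. The prefoldin subunit Pfdn5 went from 139.7 ± 10.2 to 52.3 ± 1.35 FPKM (log2 fold change -1.40 ± 0.07), Pdcl3 from 40.9 to 15.3 FPKM (-1.37) and Pdcl from 21.3 to 8.50 FPKM (-1.23). Under median-ratio scaling Pfdn5, Pdcl3 and Pdcl had -0.07, -0.08 and 0.02. The median of the ring subunits was 0.49 in the same comparison, against -1.10 over all genes. In the comparison with TCA on both sides (C vs D), 1 co-chaperone was higher and 7 lower, again near the background of 71.5% lower. Of the 6 prefoldin-like genes, 1 was higher and 4 lower in B vs A on the FPKM scale, 4 and 1 under median-ratio scaling and 3 and 1 under quantile normalization. Uri1, a prefoldin-like scaffold, went from 20.6 ± 1.43 to 0.416 ± 0.102 FPKM, Pdrg1 rose from 15.3 ± 0.899 to 36.8 ± 3.65 FPKM, and Rpap3 went from 13.8 to 6.32 FPKM, turning to a log2 fold change of 0.18 under median-ratio scaling. Ruvbl2, an AAA+ ATPase and the most abundant of the list in A, had a log2 fold change of 0.07 (limma adjusted p = 0.419).

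The actin and tubulin clients lay near the median gene on the FPKM scale and the other clients below it. All 4 actin genes were called lower in B vs A. Their median change of -1.09 log2 units turned to 0.24 under median-ratio scaling, with 2 called higher and 1 lower. It was -1.46 on the TPM scale and -1.41 under quantile normalization, with all 4 called lower in each. The median over all genes under quantile normalization was -0.10. Actb, cytoplasmic actin, went from 818 ± 110.2 to 263 ± 20.8 FPKM, and Actr2, of the actin-nucleating Arp2/3 complex, from 128 to 43.3 FPKM. The log2 fold changes of Actb and Actr2 were -1.63 and -1.55, but -0.29 and -0.23 under median-ratio scaling. Of the 11 tubulin genes tested, 3 were higher and 8 lower, close to the 72% lower of all genes, with a median of -1.02 on the FPKM scale and 0.28 under median-ratio scaling. Tubb5, the most abundant of the list in A, went from 653 ± 28.3 to 105 ± 2.19 FPKM, and Tubb6, Tubb2b and Tuba1b had log2 fold changes of -3.46, -3.41 and -2.88. These genes kept their direction under median-ratio scaling (-1.29 for Tubb5). Actin and tubulin genes have near-identical copies, and reads shared among them make their separate values uncertain. The tubulin cofactors, which take tubulin over from CCT, had 1 gene higher and 4 lower (2 and 3 under median-ratio scaling), with log2 fold changes of -2.88 for Arl2, -2.82 for Tbcc and -2.10 for Tbcd, while Tbca, the most abundant, went from 117 to 52.7 FPKM (0.19 under median-ratio scaling). All 14 WD40 and other clients were called lower, with a median of -1.91 on the FPKM scale and -0.95 under median-ratio scaling, where 10 of them were still called lower and 3 higher. Cdc20, an activator of the anaphase-promoting complex, went from 76.0 ± 4.77 to 3.57 ± 0.455 FPKM, Plk1, a mitotic kinase, from 40.0 to 1.96, and Fzr1 from 28.5 to 2.65. Gnb1, a G protein beta subunit, went from 172 to 58.1 FPKM (log2 fold change -1.55, but -0.22 under median-ratio scaling).

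Other chaperone genes and the proteasome core were mostly higher, against 20.1% of all genes called higher in B vs A. Of the 10615 genes tested, 1630 were called higher on the TPM scale, 4262 under quantile normalization and 4670 under median-ratio scaling. Of 11 cytosolic HSP70 and HSP90 genes, 9 were higher in B vs A on the FPKM and TPM scales and under quantile normalization and 11 under median-ratio scaling (median log2 fold change 3.41 on the FPKM scale). Hspa1b, an inducible HSP70, went from 0.815 ± 0.362 to 7842 ± 957.0 FPKM and the HSP40 gene Dnajb1 from 12.8 ± 0.532 to 1622 ± 158 FPKM. Hspa1a was listed at 0 in A and at 443 ± 208 FPKM in B, and since it is nearly identical to Hspa1b the split between them is uncertain. Hsp90ab1, the most abundant of the list in A, had a log2 fold change of 0.65 on the FPKM scale and -0.45 under quantile normalization. Hspe1, the lid of the mitochondrial chaperonin, rose from 112 ± 4.98 to 679.5 ± 17.1 FPKM, while Hspd1, the barrel it caps, went from 209 ± 7.39 to 233 ± 7.20 FPKM (log2 fold change 0.16 ± 0.06, limma adjusted p = 0.0229) and turned to -0.21 on the TPM scale and -0.33 under quantile normalization. In C vs D Hspe1 was again higher (2.30) and Hspd1 lower (-0.39, but 0.99 under median-ratio scaling). All 14 genes of the proteasome 20S core, another complex of fixed make-up, were higher in B vs A (12 on the TPM scale, and 12 with 1 lower under quantile normalization), with log2 fold changes from 0.40 to 2.65, led by Psmb3, Psma5 and Psma1, and Psmb4, the most abundant in A, had 1.59. Of the 14, 12 were higher and 1 (Psma7, named after its value was seen) lower in C vs D (background 20.9% higher). The chaperonin-like genes, related to CCT in sequence, were low. Cct6b, a testis relative of Cct6a, had 0.116 FPKM in A, and Cct8l1 had 0.00881, both below the filter. Mkks, Bbs10 and Bbs12, which help assemble the BBSome of cilia, were called lower in B vs A with log2 fold changes of -0.38, -1.01 and -1.59, of which Mkks turned to 0.79 under median-ratio scaling and 0.88 under quantile normalization, and Bbs10 to 0.28 under quantile normalization. Of these only Bbs12 was called lower in C vs D (-1.37), where Mkks had -0.12 (limma adjusted p = 0.265) and Bbs10 0.02 (limma adjusted p = 0.863).

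**Figure D5:**
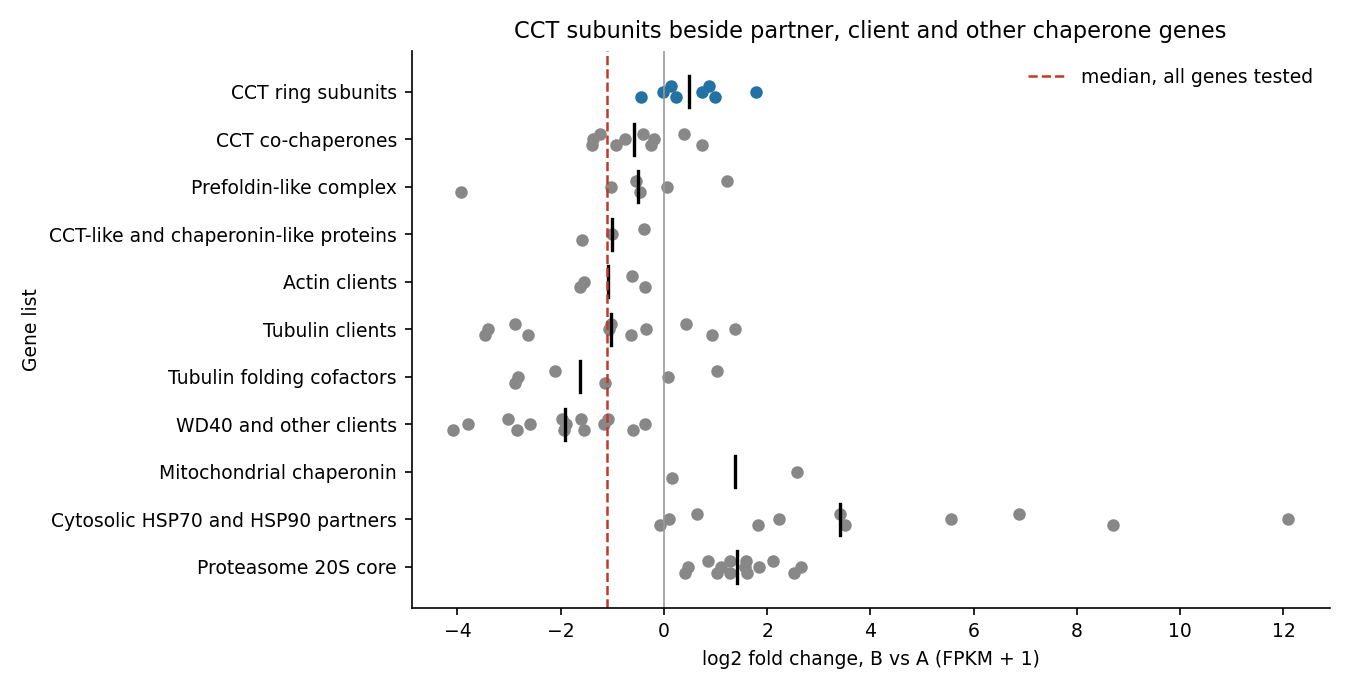
Fitted log2 fold change in B vs A of each tested gene in the ring and in 10 other lists, on the FPKM scale, with a black bar at each list's median. The ring subunits (blue) have a median of 0.49 and a range from -0.45 to 1.79, the co-chaperones a median of -0.58 (0.69 under median-ratio scaling) and the 14 proteasome core genes a median of 1.42.

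The profile of the ring mean over the 12 libraries was followed most closely by genes outside the ring. Of 4742 genes with a mean of at least 10 FPKM, 4 of the 5 nearest by root mean square distance of centred log2 values were Farsa, a phenylalanyl-tRNA synthetase subunit (0.0428 log2 units), Raly, an RNA-binding protein (0.0626), Eif3i, a translation initiation factor subunit (0.0694), and Tbc1d10a (0.0696). Farsa measured 26.2 ± 0.521 FPKM in A, 39.7 ± 0.896 in B, 34.0 ± 2.94 in C and 28.8 ± 1.40 in D. The subunit genes themselves were further from their own mean. Tcp1 was the nearest at 0.142, with 112 genes nearer, and Cct3 the furthest at 0.643, with 2163 genes nearer.

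Some subunit genes overlap genes on the other strand, and the sources used here do not say whether counting used strand. In GENCODE transcripts of GRCm38.p6, 21.1% of the 75-base stretches of the longest coding transcript of Tcp1 were shared with Acat2 or Acat3, 15.9% of those of Cct6a (whose transcript used was not annotated as coding) with Psph, 5.96% of those of Cct7 with Pradc1 and 5.09% of those of Cct8 with Usp16, and none for Cct2, Cct3, Cct4 and Cct5. Reads from both partners cannot be told apart there without strand. Psph, looked up after the values were seen, had 22.4 ± 1.99 FPKM in A, 18.5 ± 2.42 in B, 16.8 ± 0.780 in C and 35.7 ± 3.96 in D. These levels are far under the 101 to 204 FPKM of Cct6a, but like Cct6a they were higher in D than in A (log2 fold change 0.65) and lower in C than in D (-1.04). The part of this overlap in the values of Cct6a was not tested. Acat2, which shares stretches with Tcp1, measured 24.6 ± 2.16 FPKM in A, 1.42 ± 0.102 in B, 3.16 ± 0.237 in C and 27.2 ± 1.76 in D, against group means of 247 to 294 FPKM for Tcp1. Pradc1 near Cct7 and Usp16 near Cct8 measured 4.45 and 12.6 FPKM in A, against at least 147 FPKM for each of these subunit genes. Their part in the values was likewise not tested.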

How the data were processed

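RNA from AML12 cells was measured in 12 libraries, 3 per group, and the groups were taken from the sample labels. The deposited values are FPKM per gene, made by the authors. Their processing notes name fastp, HISAT2, HTSeq and the build GRCm39, and versions, gene annotation and strand setting are not given in the sources used here. The labels do not say whether replicates were separate cultures, so p-values measure the spread between these libraries, which may be technical. log2(FPKM + 1) was fitted with limma 3.58.1 in R 4.3.3 (empirical Bayes with trend, group means over all 12 libraries, 8 residual degrees of freedom), for genes with a mean of at least 1 FPKM, two-sided, with Benjamini-Hochberg adjustment over 10615 genes and a threshold of 0.05. Fold changes are on that scale and understate changes of low genes. For the fit relative to the ring, the mean of the 8 subunit genes in each library was subtracted from every gene first. On simulated data for B vs A over 10615 genes, 99.5% of 200 changed genes were recovered with 11 false calls. Those changes were of at least 1 log2 unit, as many up as down, with no shift between libraries. The simulation therefore does not cover smaller changes, or a table in which most genes are lower, as in B vs A.

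Single values were also tested by exact permutation of 3 against 3, which cannot go below 0.1. TPM, median-ratio and quantile scaling, a pseudocount of 0.1, no filter and a minimum of 5 FPKM, no trend, fewer groups, limma-voom on recovered reads, a replicate block and leaving out each library were the alternatives. The main fit did not pair libraries by replicate number in any comparison, and the replicate block was an alternative only. Deviations of same-numbered libraries correlated at 0.142 to 0.174 between A and B and at 0.00502 to 0.277 between B and C. They correlated at 0.0872 to 0.579 between A and D and at -0.171 to 0.111 between C and D. Over all pairs of groups the mean was 0.125 for same-numbered libraries. It was -0.0590 for libraries of different number, which ran from -0.510 to 0.367. With the block, 5 subunit genes were higher and 1 lower in B vs A, against 6 and 1 in the main fit.

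The 8 subunit genes and the lists were chosen with earlier results of these data known. Besides the 8, the text names the 5 nearest profiles and, from each list, up to 3 genes past both thresholds (adjusted p and an absolute log2 fold change of 1) in B vs A with the largest change, the gene highest in A and all chaperonin-like genes. Of the 5 nearest profiles 1 is not reported here, and 2 of the 9 hepatocyte markers were not analysed here.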

Additional observations from a re-analysis of the deposited data

Results flagged for a closer look

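The effect of TCA differed between cells with and without Cu/ES for 5 subunit genes, by the interaction term of the limma fit over all 12 libraries (adjusted over all genes, of which 37.5% passed). The effect with Cu/ES minus the effect without was -0.56 log2 units for Cct6a (adjusted p = 9.42e-04), -0.52 for Cct7 (0.00890), -0.36 for Cct8 (0.0238), -0.24 for Cct3 (0.0293) and -0.24 for Cct4 (0.0477). Cct6a went from higher with TCA in the absence of Cu/ES (171 to 204 FPKM) to lower in its presence (125 to 101 FPKM). For Cct7 the means were 164 and 180.3 FPKM without Cu/ES and 162 and 125 FPKM with it. Relative to the ring mean the difference was smaller but passed for Cct6a and Cct7, at -0.31 and -0.27. The call of Cct7 (limma adjusted p = 0.0363) was lost without A1, A2, A3, B2, B3, C1, C3, D1 or D3. Cct8 did not pass, at -0.11 (limma adjusted p = 0.308), and the difference was 0.01 for both Cct3 and Cct4. Cct2, which is not among the 5, had 0.40 and passed. Groups of 3 were too small for the search for single outlying libraries.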

How the results depend on the processing

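The scaling between libraries moved the ring as a whole. The mean log2 fold change of the 8 subunit genes in B vs A was 0.54 on the FPKM scale, 0.17 on the TPM scale, 1.87 under median-ratio scaling and 0.0191 under quantile normalization, and in C vs D it was 0.29, 9.86e-04, 1.67 and -0.12. The mean of the interaction was -0.25, and -0.17 and -0.14 on the TPM and quantile scales. By construction, median-ratio scaling sets the typical gene to no change. Under it the count of subunit genes past the adjusted p was 2 in C vs B, 1 in D vs A and 2 for the interaction. Over the 10615 genes tested, it called 2735 higher and 2321 lower in C vs B and 913 and 767 in D vs A. For the interaction it called 2122 higher and 1879 lower. The interaction count of 5 became 3 without a filter, 3 without a trend, 3 under quantile normalization (2 lower, and Cct2 higher) and 2 to 5 when 1 library was left out (2 without B2, C1, C3 or D1). The D vs A count was 1 to 2 with 1 library left out, and the count relative to the ring mean in C vs B was 2 to 5 (2 without C1 or C3). The cause was not tested beyond the scaling. Single values turned as follows. On the TPM scale, B vs A gave -0.14 for Tcp1, -0.23 for Cct4, -0.30 for Ruvbl2 and -0.21 for Hspd1, and C vs D gave -0.21 for Tcp1 and -0.0488 for Farsa. Under median-ratio scaling, B vs A gave 0.88 for Cct6a, 1.32 for Cct7, 0.79 for Mkks, 0.0169 for Pdcl, 0.18 for Rpap3 and 0.19 for Tbca, and C vs D gave 0.37 for Cct6a, 0.84 for Cct7, 1.29 for Cct4, 1.13 for Mkks, 0.53 for Pdcl, 0.94 for Ruvbl2, 0.0175 for Tbca and 0.99 for Hspd1. Under quantile normalization, B vs A gave -0.32 for Tcp1, -0.49 for Cct4, 0.88 for Mkks, 0.28 for Bbs10, 0.13 for Rpap3, -0.33 for Hspd1 and -0.45 for Hsp90ab1, and C vs D gave -0.33 for Tcp1, 1.02 for Mkks, 0.20 for Pdcl and -0.43 for Hsp90ab1.

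Over all genes, calls past both thresholds in B vs A were 1070 higher and 5622 lower, 2858 and 2609 under median-ratio scaling and 2198 and 2353 under quantile normalization, and in C vs D 1189 and 5662, 2955 and 2660, and 2269 and 2448. Without a filter 3837 genes were higher in B vs A and 4694 in C vs D at the adjusted p, against 2138 and 2218. In D vs A 1225 genes were lower, 579 with a pseudocount of 0.1 and 767 under median-ratio scaling. With the replicate block the subunit counts were 5 higher and 1 lower in B vs A (Cct4 lost, adjusted p = 0.0577) and 4 for the interaction (Cct4 lost, 0.0611), and the block changed no other call of a subunit gene. The fit to only the groups compared gives no value for the interaction.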
